A study of Homo sapiens with 10 samples.

Results

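The CDK9 inhibitor arm of a pulse-chase experiment was followed from its own starting point, the 0 h library, through 2, 4 and 8 h of AZ5576 (written AZ-5576 in the protocol). The cells were K562, an established human line from chronic myeloid leukaemia with erythroid features. They were fed 30 µM 4-thiouridine for 12 h, in medium renewed every 3 h, then washed and chased in 3 mM uridine with 1 µM of the inhibitor. The DMSO chase at 2, 4 and 8 h, which had the same pulse and uridine but only the solvent, starts from the same 0 h library and served here as the arm with ongoing synthesis. Fly S2 RNA, 5% of the purified RNA, was the spike-in, so a level per fly read is a level per mass of RNA, not per cell. Changes in cell number or in the RNA mass of a cell are not measured by it. Each time and arm is 1 library (n = 1), 4 libraries in the AZ5576 chase out of 10 in the series (the others are DMSO and the BET inhibitor JQ1), and nothing in the labels names a separate culture or clone. The genes described are the 8817 of 59204 listed human genes whose labelled count averaged at least 20 over the 10 libraries; ZBTB9, with a mean of 20.0, lies just inside and GNRH1, with 19.9, just outside.

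CDK9 is the kinase of P-TEFb, the factor that releases RNA polymerase II from its pause near the promoter into productive elongation. Its inhibition stops the making of most messenger RNA. Thiouridine is built into RNA made during the pulse and is read as T-to-C changes after treatment with iodoacetamide; RNA made in the uridine chase is unlabelled. If a gene stops making RNA and its labelled and unlabelled molecules decay alike, total reads fall at the rate of labelled reads and the labelled share of the gene's reads stays level. A share that falls means that unlabelled reads were lost more slowly than labelled reads or were added. Mitochondrial DNA is transcribed by its own polymerase, POLRMT, which does not depend on CDK9.

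The libraries were read from 3′ ends, so the bases near a transcript's end decide how many T positions a read can show as converted. The last 100 bases of 2 mitochondrial messengers that are central to the results are given for that reason, from the GENCODE v29 transcripts, with every T in capitals. MT-ND4 (GRCh38 chrM:12038-12137, plus strand) has 27 T in this stretch and MT-ND1 (chrM:4163-4262, plus strand) has 28, while their labelled shares at 0 h were 3.16 and 23.6%.
MT-ND4: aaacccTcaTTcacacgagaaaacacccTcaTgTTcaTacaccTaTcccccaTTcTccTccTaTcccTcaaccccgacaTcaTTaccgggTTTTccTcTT
MT-ND1: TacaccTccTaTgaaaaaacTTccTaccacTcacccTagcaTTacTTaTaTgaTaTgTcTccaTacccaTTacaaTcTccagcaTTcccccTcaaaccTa

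The promoters of a gene whose unlabelled reads lay above 0 h at 8 h (TXNIP) and of a gene that lost nearly all of its RNA (DNAJB1) are given next. Each is shown as 300 bases from 250 before to 50 after the start (RefSeq, GRCh38.p14), with CCAAT and its complement ATTGG in capitals. TXNIP lies at chr1:145996530-145996829 and DNAJB1 at chr19:14529222-14529521, both on the minus strand. The TXNIP window holds 1 CCAAT and 1 ATTGG and the DNAJB1 window 3 CCAAT. Neither holds TATAAA or its complement. CCAAT on either strand was found in 38.5% of the 6521 member promoters in the table, in 37.1% of the 812 whose labelled share fell and in 42.1% of the 171 whose total fell to under 10 percent of 0 h. TATAAA was found in 4.94, 6.53 and 8.77% of them. The matches are a description of these windows only.
TXNIP: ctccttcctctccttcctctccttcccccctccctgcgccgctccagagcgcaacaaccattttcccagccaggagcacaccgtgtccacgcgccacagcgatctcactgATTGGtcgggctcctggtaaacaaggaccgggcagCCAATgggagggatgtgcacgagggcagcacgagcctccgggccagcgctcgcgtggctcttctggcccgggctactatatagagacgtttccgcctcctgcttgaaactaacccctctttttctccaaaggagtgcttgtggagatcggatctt
DNAJB1: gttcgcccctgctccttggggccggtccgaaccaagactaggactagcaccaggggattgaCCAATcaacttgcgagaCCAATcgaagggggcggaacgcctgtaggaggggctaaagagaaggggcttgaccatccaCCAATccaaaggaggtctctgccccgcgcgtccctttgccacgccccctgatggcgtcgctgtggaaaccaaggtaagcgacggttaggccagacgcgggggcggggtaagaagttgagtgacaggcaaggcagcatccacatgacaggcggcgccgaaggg

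Total depth was similar across the chase, while fly reads were most numerous at 8 h. The libraries held 12099803, 12266820, 10293371 and 12729708 total reads at 0, 2, 4 and 8 h, of which 3868420, 3744645, 2953490 and 3247873 were labelled, beside 1479776, 1361271, 1468219 and 2366155 fly reads. The member genes took between 98.0 and 98.7% of the total reads of the 10 libraries. The fly genes of the AZ5576 2 h library correlated least with those of the other libraries (median Pearson's r of log values 0.921, against 0.955 for 0 h and at least 0.972 for the rest, across 2069 fly genes), so the scale of that library is the least certain. All 12 markers of the K562 line were members, led by the fetal globins HBG1 and HBG2, while 3 of 14 markers of other cell types were members (CD3D, LYZ and EPCAM) and MS4A1, NCAM1 and KRT5 had no read. Summed, the first list held 84746 to 127435 reads per 1000000 fly reads and the second 553 to 846.

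Over all reads, labelled RNA fell somewhat faster than total RNA under AZ5576. Total reads per fly read stood at 110, 85.7 and 65.8% of the 0 h level at 2, 4 and 8 h of AZ5576, labelled reads at 105, 76.9 and 52.5% and unlabelled reads at 113, 89.9 and 72.0%. All 3 measures were above 0 h at 2 h and below it at 4 and 8 h. In DMSO, total reads stood at 118, 108 and 111% of 0 h, labelled reads at 107, 71.0 and 45.8% and unlabelled reads at 123, 126 and 142%, so that labelled reads fell while total reads did not. The labelled share of all reads was 32.0, 30.5, 28.7 and 25.5% at 0, 2, 4 and 8 h of AZ5576, against 29.1, 20.9 and 13.2% at 2, 4 and 8 h of DMSO. Had total and labelled reads fallen alike the share would have stayed at 32.0%; the reads present at 8 h beyond that were 20.2% of all reads under AZ5576 and 58.7% in DMSO. Exact 95% intervals of these shares are narrower than ± 0.1 percentage points and cover counting error only, and no library has a replicate.

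**Figure D1:**
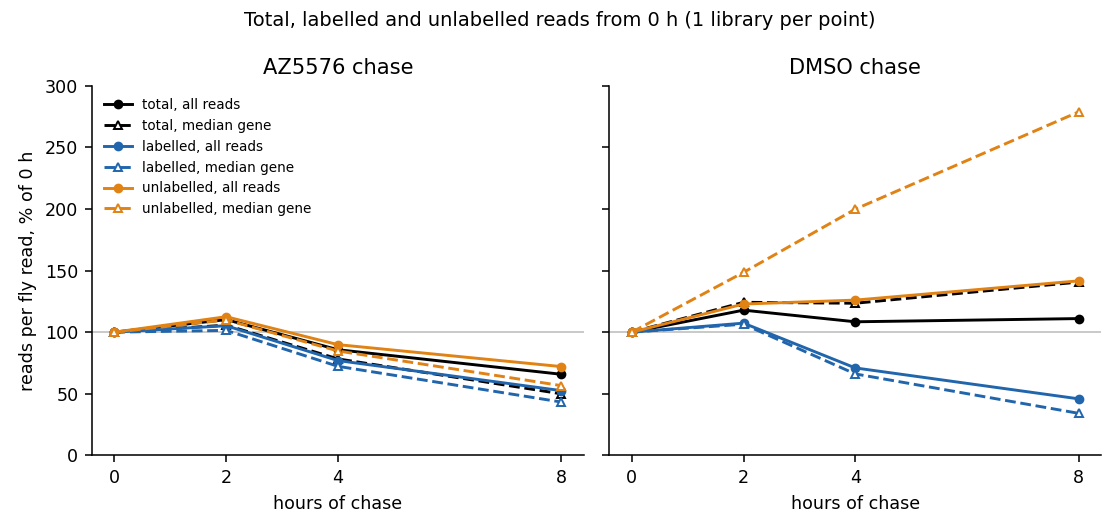
Total, labelled and unlabelled reads per fly read as percent of the 0 h library (y axis) against hours of chase (x axis), for AZ5576 (left) and DMSO (right); filled points are sums over all reads, open triangles the median of 8817 genes, 1 library per point. Under AZ5576 the 3 measures fall together after 2 h, to 65.8, 52.5 and 72.0% of 0 h over all reads, whereas in DMSO the unlabelled reads reach 142% and the labelled reads 45.8%.

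The drop in share was smaller without mitochondrial reads. The 396 genes of the mitochondrial genome and their nuclear copies took 9.33, 10.7, 11.8 and 13.4% of total reads at 0, 2, 4 and 8 h of AZ5576, and their own labelled share was 11.8, 7.13, 3.76 and 1.86%. Without them, a choice made after the data were seen, the labelled share of the remaining reads was 34.0, 33.3, 32.0 and 29.2%, that is 85.7% of its 0 h value at 8 h rather than 79.8%. In DMSO at 8 h the remaining reads had a share of 14.2%, which is 41.6% of the 0 h value.

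The typical gene lost its total RNA nearly as fast as its labelled RNA. For the median gene, total reads per fly read were at 106, 78.3 and 49.9% of 0 h at 2, 4 and 8 h of AZ5576, and labelled reads at 101, 72.3 and 43.2%. Unlabelled reads were at 110, 84.7 and 56.6% and the labelled share at 96.6, 92.3 and 88.6% of its 0 h value. The same medians of the share were 84.1, 50.5 and 20.7% in DMSO, where unlabelled reads of the median gene were at 279% of 0 h by 8 h. Labelled reads of the median gene in DMSO were at 106, 66.1 and 34.1%, lower at 4 and 8 h than under AZ5576. A straight line in log2 counts over the 4 libraries (edgeR's quasi-likelihood test, fly reads as the scale, 2 residual degrees of freedom) gave a median slope of −0.14 per h for total reads and −0.16 per h for labelled reads. Read as an even fall from 0 h these slopes are half-lives of 7.18 and 6.09 h, but the measured course was not even. The median change per h of total reads was 0.04 from 0 to 2 h, −0.23 from 2 to 4 h and −0.17 from 4 to 8 h (log2). The first value rests on the fly scale of the 0 and 2 h libraries, the least certain ones, and the second also on that of 2 h. Whether that scale shaped the course was not tested. From 0 to 2 h, 2 to 4 h and 4 to 8 h, 38.8, 89.1 and 96.6% of the genes were lower at the end of the interval.

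Total reads fell past an adjusted p of 0.05 (Benjamini-Hochberg over 8817 genes, as for every adjusted p below) in 5346 genes, 60.6% of those tested, and rose in 37, or 0.42%. Labelled reads fell in 5763 genes (65.4%) and rose in 9 (0.102%). Unlabelled reads fell in 2803 genes (31.8%) and rose in 54 (0.612%). Both total and labelled reads fell in 4761 genes. These counts rest on the later libraries: without the 4 h library the falls numbered 1932, 3697 and 471 for total, labelled and unlabelled reads, without the 8 h library 203, 345 and 46, and without the 0 h library the unlabelled falls numbered 5644. The rises of total reads numbered 12 without the 4 h library and 8 without the 8 h library, and those of unlabelled reads 14 and 13. They also rest on the fly scale. TMM scaling, which sets the typical gene to no change, puts the median log2 ratio of total reads at 8 h to 0 h at 0.008 in place of −1.002, and then 1222 genes fell and 843 rose. Labelled reads then fell in 1575 genes and rose in 1254. The shift touches every statement below on the level or slope of total, labelled or unlabelled reads, but not those on the share.

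Whether total RNA fell as fast as labelled RNA was tested gene by gene by the slope of log2(labelled/unlabelled reads) per h, from both classes of read in the same libraries, in which the fly scale cancels. This share slope was below 0 past an adjusted p of 0.05 in 1052 genes, 11.9% of those tested, and above 0 past it in 109, or 1.24%. Whatever the p, it was below 0 in 6369 genes, and its median was −0.05 per h. For the remaining genes the test did not separate the fall of labelled from that of unlabelled reads, which does not show that they were equal. Of the 1052 genes with a falling share, total reads fell in 676, rose in 19 and did not pass the test in 357, and unlabelled reads were above their 0 h level at 8 h in 359 (972 of all members, 11.0%). The counts were 524 and 42 without the 0 h library and 307 and 16 without the 8 h library. The DMSO slopes came from fits of all 10 libraries with 6 residual degrees of freedom, so their counts have more power than those above. The DMSO share slope was below 0 past the same threshold in 8017 genes (90.9%) and above 0 past it in 11 (0.125%). Its median was −0.43 per h, and total reads fell in 410 genes in DMSO (4.65%) and rose in 2586 (29.3%). With all 10 libraries in the fit, the AZ5576 share fell in 1419 genes and rose in 25. Total reads under AZ5576 then fell in 7001 and rose in 13.

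**Figure D2:**
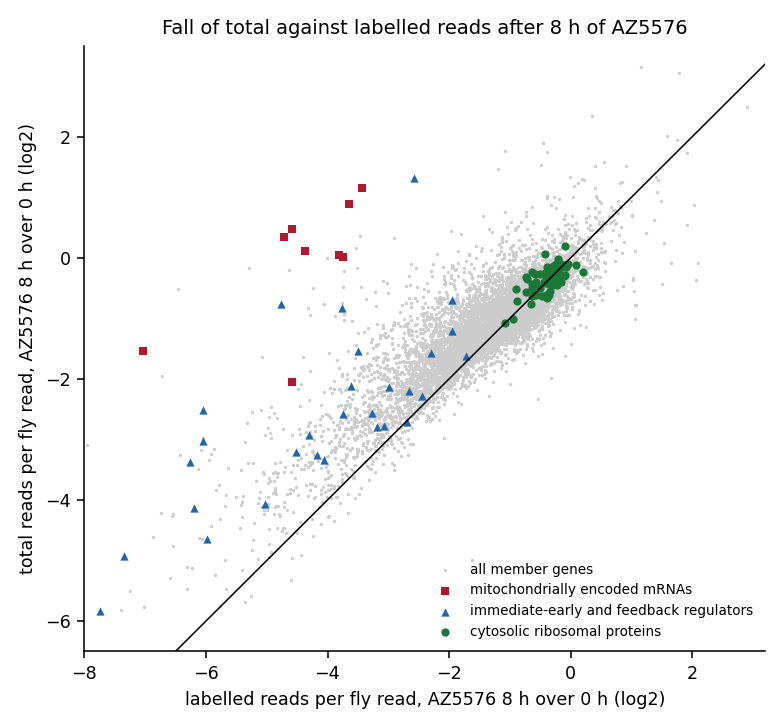
Log2 ratio of reads per fly read at 8 h of AZ5576 to 0 h, labelled reads on the x axis and total reads on the y axis, 1 point per member gene (grey), with 3 gene lists coloured and the line of equal fall in black; 13 genes with no labelled read at 8 h and 5 outside the axes are not drawn. Ribosomal protein genes lie near the line, mitochondrially encoded messengers lie far above it, with MT-ND4 total reads at 223% and labelled reads at 9.30% of 0 h, and most immediate-early genes lie above it at the lower left.

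In the 7 genes described first total reads fell while the share slope did not pass the test. They do not stand for regulatory genes at large: among erythroid and leukaemia transcription factors the share fell in 36.4% of the members and among immediate-early regulators in 65.6%, against 11.9% of all genes. KLF1, an erythroid transcription factor that switches on globin genes, had 823, 540, 251 and 64 total reads at 0, 2, 4 and 8 h of AZ5576 and a labelled share of 40.0, 43.9, 40.6 and 37.5%. Its total reads per fly read were at 4.86% of 0 h at 8 h and its labelled reads at 4.56%, with straight-line half-lives of 1.79 and 1.77 h. In DMSO the KLF1 share was 33.3, 9.51 and 1.15% at 2, 4 and 8 h, with total reads at 151% of 0 h. HSPA8, the constitutive HSC70 chaperone, had a share of 67.9, 66.9, 65.2 and 63.7% in the AZ5576 chase as total reads per fly read went down to 31.6% of 0 h, and a share of 57.4, 32.1 and 11.4% in DMSO. For KLF1 the share slope was −0.02 (SE 0.049, adjusted p = 0.97) and for HSPA8 −0.03 (SE 0.015, adjusted p = 0.14), both by edgeR's quasi-likelihood test.

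ATF4, the transcription factor of the integrated stress response, had a share of 54.6, 53.4, 53.6 and 52.0% with total reads at 48.7% of 0 h at 8 h. Its share was 41.6, 23.5 and 11.4% at 2, 4 and 8 h of DMSO. HEXIM1, which holds P-TEFb inactive in the 7SK particle, had 72.5, 79.1, 65.9 and 66.3% labelled reads while its total reads per fly read were at 11.2% of 0 h at 8 h. NFE2, an erythroid bZIP factor, had 930, 697, 155 and 96 total reads and a share of 49.9, 43.3, 47.1 and 53.1%. GATA1, the master erythroid factor, had shares of 34.95, 36.6, 33.7 and 30.8% with total reads at 30.3% of 0 h at 8 h, and CCNB1, the mitotic cyclin, 66.5, 67.0, 66.2 and 63.9% with total reads at 36.0%. The total slopes of the 7 genes KLF1, HSPA8, ATF4, HEXIM1, NFE2, GATA1 and CCNB1 passed the test (−0.56, −0.22, −0.15, −0.40, −0.54, −0.24 and −0.21 per h, adjusted p from 6.2e-18 to 0.002, edgeR). Without the 8 h library only that of NFE2 did, and that of ATF4 also missed the threshold without the 4 h library. Under TMM scaling the slopes of the other 6 still passed, and that of ATF4, −0.01, did not. That a share slope did not pass does not show that labelled and unlabelled reads fell alike.

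Several of the fastest falls of total reads left almost nothing at 8 h. AVPI1, a gene named for its induction by vasopressin, had 503, 411, 98 and 20 total reads and DNAJB1, the HSP40 co-chaperone, 1583, 942, 115 and 73. RRS1, a ribosome assembly factor, had 1088, 601, 133 and 46, and CCDC71L 530, 334, 143 and 30. All 4 kept over 0.5 of their reads at 2 h and were at 2.49 to 3.54% of the 0 h level per fly read at 8 h. Their total slopes ran from −0.71 to −0.61 per h (SE 0.058 to 0.072, adjusted p at most 8.2e-17, edgeR), and each passed the test with any 1 library left out and under TMM scaling. Their labelled shares at 8 h rest on 16 to 17 labelled reads. Of the 4 share slopes that of DNAJB1 passed the test (−0.19), but not without the 8 h library (adjusted p = 0.51) or the 0 h library (0.061).

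MYC, the growth regulator, had 350, 117, 16 and 14 total reads and 260, 92, 12 and 0 labelled reads. Its share was 74.3, 78.6, 75.0 and 0%, which at 14 total reads allows a share of up to 21.4% at 8 h. The fall of the MYC share (slope −0.48, adjusted p = 0.045, edgeR) was lost without the 8 h library, where the slope was 0.07. DDIT4, an mTORC1 inhibitor, also had no labelled read at 8 h, after 212, 64 and 5, and its share slope of −0.54 likewise did not pass without that library (adjusted p = 0.45). The total slopes of MYC and DDIT4, −0.72 and −0.69 per h, passed with any 1 library left out.

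In the mitochondrially encoded messengers labelled reads went down to under 10% of 0 h at 8 h, while total reads of 7 of the 9 measured lay above their 0 h level. MT-CYB, the cytochrome b subunit of complex III (chrM:14747-15887), had 50722, 67596, 73562 and 103066 total reads and 5166, 2399, 922 and 314 labelled reads at 0, 2, 4 and 8 h of AZ5576. Its share was 10.2, 3.55, 1.25 and 0.305%, against 3.47, 1.24 and 0.185% at 2, 4 and 8 h of DMSO. Unlabelled MT-CYB reads per 1000000 fly reads were 30786, 47894, 49475 and 43426, above 0 h at all 3 later times. The share slope was −0.66 (SE 0.026, adjusted p = 4.7e-11, edgeR), and the total slope of 0.03 did not pass the test (adjusted p = 0.51) except without the 2 h library (0.022).

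MT-ND4, a complex I subunit (chrM:10760-12137), showed the largest gain among these messengers. Its total reads were 26376, 44031, 62647 and 94050, its share 3.16, 1.03, 0.557 and 0.132%, and its unlabelled reads per 1000000 fly reads 17261, 32013, 42431 and 39696. Total reads rose by 0.13 per h (adjusted p = 0.0055, edgeR), a call lost without the 0, 4 or 8 h library (adjusted p = 0.40, 0.14 and 0.30). MT-ND2, MT-ND3, MT-ND5, MT-ND4L and MT-ATP6 had unlabelled reads at 113 to 201% of 0 h at 8 h, with shares that fell to 0.216 to 0.977%. MT-ND1 and MT-ND6 lost total reads as well: MT-ND1 had 3108, 1818, 1118 and 1711 reads with a share of 23.6, 6.33, 3.94 and 0.526%, and MT-ND6, the only messenger of the light strand, 4486, 2372, 1635 and 1728 with a share of 7.71, 4.38, 1.71 and 1.33%. Both falls of total reads missed the threshold without the 8 h library (adjusted p = 0.15 and 0.14), and that of MT-ND1 also without the 4 h library (0.061) and under TMM scaling (0.36).

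As a group, 9 of the 13 mitochondrial messengers were members, and the share fell in all 9, with a median slope of −0.60 in the AZ5576 chase and −0.58 in DMSO. All 18 members on chromosome M, which include 9 transfer RNA genes such as MT-TF, had a falling share, in a test that called 11.9% of all members, and 10 of them had unlabelled reads above 0 h at 8 h. The share slope differed between AZ5576 and DMSO in 3 of the 18, in a test that called a higher slope under AZ5576 in 87.5% of all members: MT-CYB (difference 0.07, adjusted p = 0.0046), MT-ND2 (0.06, adjusted p = 0.0027) and MT-TN (0.07, adjusted p = 0.031, all edgeR). Without the AZ5576 8 h library the differences of MT-CYB and MT-ND2 were −0.01 and 0.0003 and did not pass (adjusted p = 0.77 and 0.99). Of the differences not called, that of MT-ND3 passed without the AZ5576 4 h library (0.25, adjusted p = 0.0064), as did that of MT-ND6 (0.15, adjusted p = 0.013). That of MT-ND5 passed without the DMSO 2 h library (0.20, adjusted p = 0.047) and that of MT-ND1 without the DMSO 4 h library (−0.18, adjusted p = 0.014). Nuclear copies such as MTND1P23 and MTATP8P1 on chromosome 1 took 123992 and 137821 reads at 0 h and followed the same course, with shares down to 0.321 and 2.07% at 8 h. Reads of a mitochondrial gene and its near-identical copy cannot be told apart here.

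**Figure D3:**
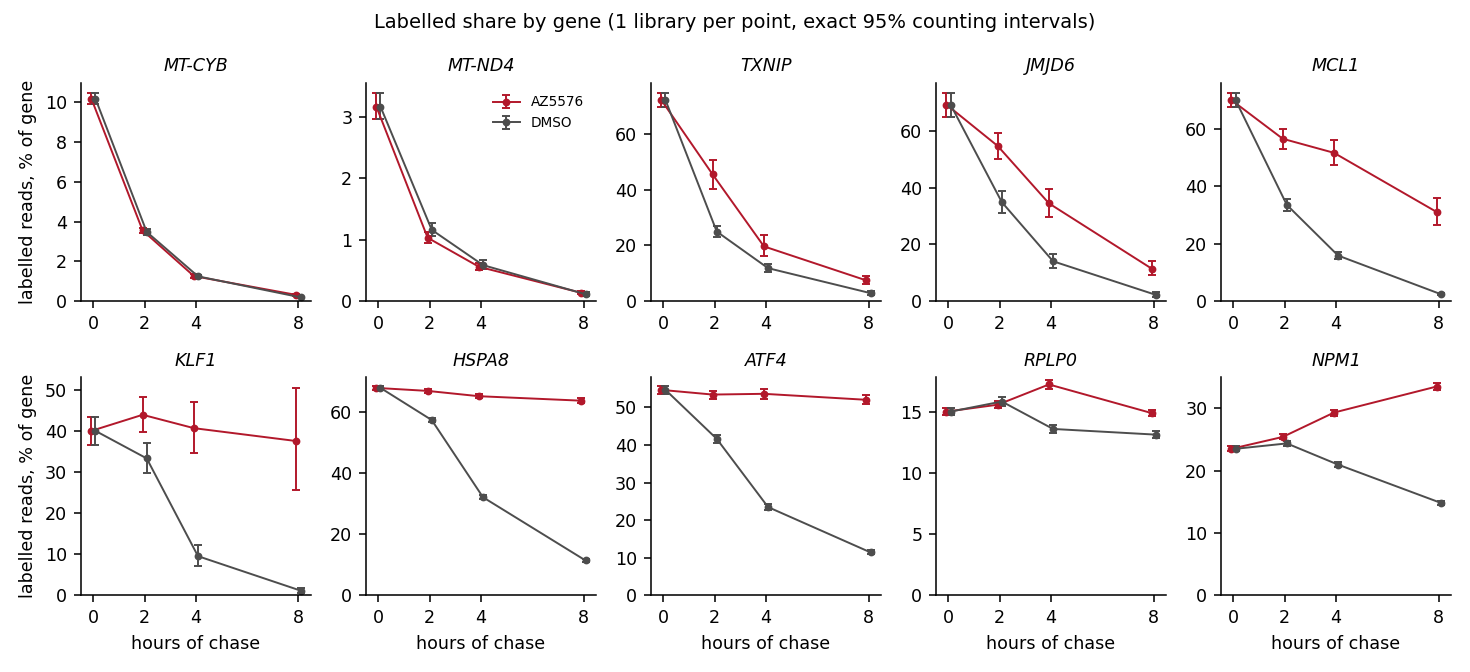
Labelled reads as percent of a gene's reads (y axis, each panel with its own scale from 0) against hours of chase (x axis) for 10 genes, AZ5576 in red and DMSO in grey, 1 library per point, bars are exact 95% counting intervals and both arms share the 0 h point. The arms overlap for MT-CYB and MT-ND4, and both fall for TXNIP and JMJD6. AZ5576 stays near its 0 h level for KLF1, HSPA8, ATF4 and RPLP0. DMSO falls far in KLF1, HSPA8 and ATF4 but only slightly in RPLP0. NPM1 goes up to 33.5% under AZ5576.

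Among nuclear protein-coding genes, TXNIP, which binds thioredoxin and restrains glucose uptake, had the steepest fall of share that the naming rule found (chr1:145992435-145996600). It had 1224, 361, 464 and 1153 total reads and 883, 164, 91 and 85 labelled reads at 0, 2, 4 and 8 h of AZ5576. Unlabelled TXNIP reads per 1000000 fly reads were 230, 145, 254 and 451: lowest at 2 h and at 196% of 0 h by 8 h. The share was 72.1, 45.4, 19.6 and 7.37%, against 24.9, 11.8 and 2.81% at 2, 4 and 8 h of DMSO. The slope was −0.64 under AZ5576 (SE 0.044, adjusted p = 8.9e-08) and 0.22 above that of DMSO (adjusted p = 0.0014, both edgeR), a difference that missed the threshold without the AZ5576 8 h library (0.091).

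Other nuclear protein-coding genes with steep falls were added after their values were seen, since mitochondrial genes filled the rule. JUN, a subunit of AP-1, had unlabelled levels of 89.2, 103, 53.8 and 141 per 1000000 fly reads, highest at 8 h, with a share of 67.3, 38.3, 17.7 and 8.77%. JMJD6, a dioxygenase of the Jumonji family, had 104, 148, 164 and 225, a rise at every step, with a share of 69.4, 54.8, 34.5 and 11.5%. SPATA2, an adaptor of the deubiquitinase CYLD, had 48.0, 134, 139 and 110 with a share of 74.2, 43.5, 21.5 and 11.8%. Their share slopes of −0.55 to −0.52 passed the test with any 1 library left out (adjusted p at most 7.1e-05 with all 4, edgeR), and their unlabelled slopes did not pass it (adjusted p 0.065 to 0.32). In all 3 the DMSO share at 8 h was lower, at 1.24 to 5.95%, and the AZ5576 slope was above that of DMSO by 0.17 to 0.36 (adjusted p at most 0.022). Without the AZ5576 8 h library that difference was lost in JUN and SPATA2 (adjusted p = 0.086 and 0.54), and in SPATA2 also without the DMSO 2 h (0.052) or 4 h library (0.10).

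Ranked by the ratio of unlabelled reads at 8 h to 0 h, most of the leading genes were processed pseudogenes such as RPL12P19, RPS12P3 and RPL14P1, whose reads may be shared with the parent genes. Several nuclear protein-coding genes lower in that order were added after their values were seen. NFIA, a nuclear factor I protein, had unlabelled levels of 58.8, 186, 327 and 213 per 1000000 fly reads. RERE, an atrophin co-regulator, had 42.6, 106, 158 and 124, and POLR2B, the second subunit of RNA polymerase II, 73.7, 150, 236 and 238. The level at 4 h was over 3 times the 0 h level in each of the 3, and at 8 h it stood at 362, 291 and 324% of 0 h. Their labelled shares fell, with slopes of −0.37, −0.33 and −0.28 (adjusted p = 0.0014, 0.0034 and 0.00017, edgeR), and all 3 calls held with any 1 library left out. The unlabelled rise passed in NFIA and POLR2B (0.19 per h in each) and not in RERE (adjusted p = 0.069). Neither of these rises held in every fit with 1 library left out, and for NFIA the slope was −0.0035 without the 0 h library.

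Of the 1052 genes with a falling share, 307 were nuclear protein-coding genes with unlabelled reads above the 0 h level at 8 h, and 36 had unlabelled reads that rose past the test. KLF10, a TGF-beta-induced repressor, was one of the latter, with 61, 42, 131 and 243 total reads and 41, 9, 15 and 11 labelled reads. MAFG, a small Maf protein that partners NFE2, was another, with unlabelled levels of 257, 297, 437 and 526 per 1000000 fly reads, a share of 60.4, 57.9, 43.5 and 25.1% and a share slope of −0.29 (adjusted p = 6.5e-06, edgeR). KMT2A, a histone H3 lysine methyltransferase that like MAFG was chosen after its values were seen, had total reads at 91.8% of 0 h at 8 h, labelled reads at 25.8% and a share of 47.4, 32.7, 22.3 and 13.3%. KLF10 had a share of 67.2, 21.4, 11.5 and 4.53% and missed the share threshold without the 0 h library (adjusted p = 0.053), and the unlabelled rise of MAFG was lost without the 4 or 8 h library.

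The immediate-early and feedback regulators, short-lived genes that answer signals, had the highest percentage of falling shares among the nuclear lists of at least 9 members. The share fell in 21 of 32 measured members, with a median slope of −0.27 against −0.05 over all genes. Total reads fell in 28, or 87.5% against 60.6% of all genes, and rose in 1, KLF10. That rise missed the threshold without the 8 h library (adjusted p = 0.425, edgeR). The median member had 14.9% of its 0 h total at 8 h but 6.66% of its labelled reads and 21.4% of its unlabelled reads. In 4 of the 21 (JUND, MCL1, IER2 and JUN) the share call held with any 1 library left out. Under TMM scaling total reads fell in 22 of the 32 and rose in 1, against falls in 1222 of all 8817 genes. MCL1, an anti-apoptotic BCL2 relative, had 1387, 821, 522 and 373 total reads and a share of 70.2, 56.6, 51.7 and 31.1%. IER2, a serum-induced regulator, had 1389, 1165, 454 and 765 with a share of 51.7, 36.8, 22.9 and 13.3%. EGR1, a zinc finger factor induced by serum, had 73, 41, 38 and 69 with a share of 69.9, 46.3, 39.5 and 4.35%. IER2, EGR1, JUN and TXNIP all had more total reads in the 8 h than in the 4 h library, while MCL1 had fewer. Per fly read the gains of IER2 and EGR1 were small beside those of JUN and TXNIP, and that of EGR1 rests on 38 and 69 reads. IER2, EGR1 and JUN were picked after their values were seen.

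For MCL1 and IER2 the share slopes were −0.29 and −0.35 (adjusted p = 3.3e-05 and 3e-06, edgeR). The calls of EGR1, JUNB and NFKBIA were lost without the 8 h library (adjusted p = 0.30, 0.45 and 0.54), and that of NFKBIA also without the 0 h library (0.22). In DMSO the median share slope of the list was −0.71, and the difference was called higher under AZ5576 in 31 of the 32 members (87.5% of all genes).

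Other regulatory lists lay between that list and all genes. Among erythroid and leukaemia transcription factors the share fell in 8 of 22, among them RUNX1, TAL1 and ZBTB7A, and total reads fell in 19 and rose in KLF10, with 30.4% of the 0 h total left at 8 h in the median member. ZBTB7A, a repressor of fetal globin, had a share of 53.5, 45.0, 26.8 and 25.9% (slope −0.23, adjusted p = 0.001, edgeR). In RUNX1 and TAL1 the share calls were lost without the 0 h (adjusted p = 0.52 and 0.071) or 8 h library (0.081 and 0.79), and in TAL1 without the 4 h library (0.052). Among numbered zinc finger genes the share fell in 22 of 178, or 12.4%, near the 11.9% of all genes, while total reads fell in 157. The falls of total reads made up 86.4% of the transcription factors and 88.2% of the zinc finger genes, against 60.6% of all genes. Under TMM scaling the falls of total reads numbered 11 of 22 and 76 of 178 in these 2 lists, against 1222 of all 8817 genes. The share calls that held with any 1 library left out numbered 2 and 1.

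Among the transcription elongation and BET genes the share fell in 11 of 38, or 28.9%, against 11.9% of all genes. Total reads fell in 24, or 63.2%, near the 60.6% of all genes. Under TMM scaling they fell in 8, against 1222 of all 8817 genes. BRD2, a BET protein, had 7985, 5245, 2644 and 2277 total reads and a share of 38.8, 37.3, 35.2 and 29.5%; CDK12, a CTD kinase, had a share of 72.4, 64.4, 58.1 and 45.4%. Without the 8 h library neither share slope passed (adjusted p = 0.40 and 0.11, edgeR). POLR2A, the largest subunit of RNA polymerase II, had 57.8, 57.0, 47.3 and 48.4%, with a share slope of −0.08 that did not pass (adjusted p = 0.13). Among integrated stress response genes the share fell in 8 of 23, or 34.8%. Among mRNA decay factors it fell in 14 of 54, or 25.9%, and rose in 2. Over all genes it fell in 11.9% and rose in 1.24%. The share calls that held with any 1 library left out numbered 1 for elongation genes (JMJD6) and 3 for decay factors (CNOT4, YTHDF1 and EXOSC10), and no stress response gene kept its call.

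Heat shock, mitosis and splicing lists were split. The share fell in 7 of 20 heat shock chaperones, among them DNAJB1, HSPA5 and BAG3, and rose in 2, the mitochondrial pair HSPE1 and HSPD1. It fell in 13 of 42 mitosis genes and rose in PTTG1 and CKS1B. PLK1, a mitotic kinase, had a share of 73.9, 70.2, 61.8 and 43.5% (slope −0.24, adjusted p = 3.8e-07, edgeR), next to the level share of CCNB1. It fell in 8 of 38 splicing regulators, most steeply in the kinases CLK3 and CLK1 and in HNRNPF (slopes −0.39, −0.34 and −0.31), and rose in 5, all hnRNP genes (HNRNPA2B1, HNRNPA1, HNRNPD, HNRNPK and HNRNPA3). Falls made up a larger part of each of these lists than the 11.9% of all genes. Over all genes the share rose in 1.24%. Falls that held with any 1 library left out numbered 1, 2 and 1 for heat shock, mitosis and splicing. Rises that held numbered 0 in each. Of the genes named here from the heat shock, mitosis and splicing lists, the share calls of PLK1 and HNRNPF held with any 1 library left out. All the others were lost without the 8 h library. Those of HSPE1, HSPD1, PTTG1, HNRNPA1, HNRNPA2B1, HNRNPA3, HNRNPD and DNAJB1 were also lost without the 0 h library. HNRNPF, which binds G-rich RNA, had unlabelled levels of 710, 899, 1019 and 752 per 1000000 fly reads and a share of 71.9, 63.0, 50.9 and 31.5%, while SRSF3, an SR protein, had 69.3, 67.4, 68.4 and 66.6%.

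**Figure D4:**
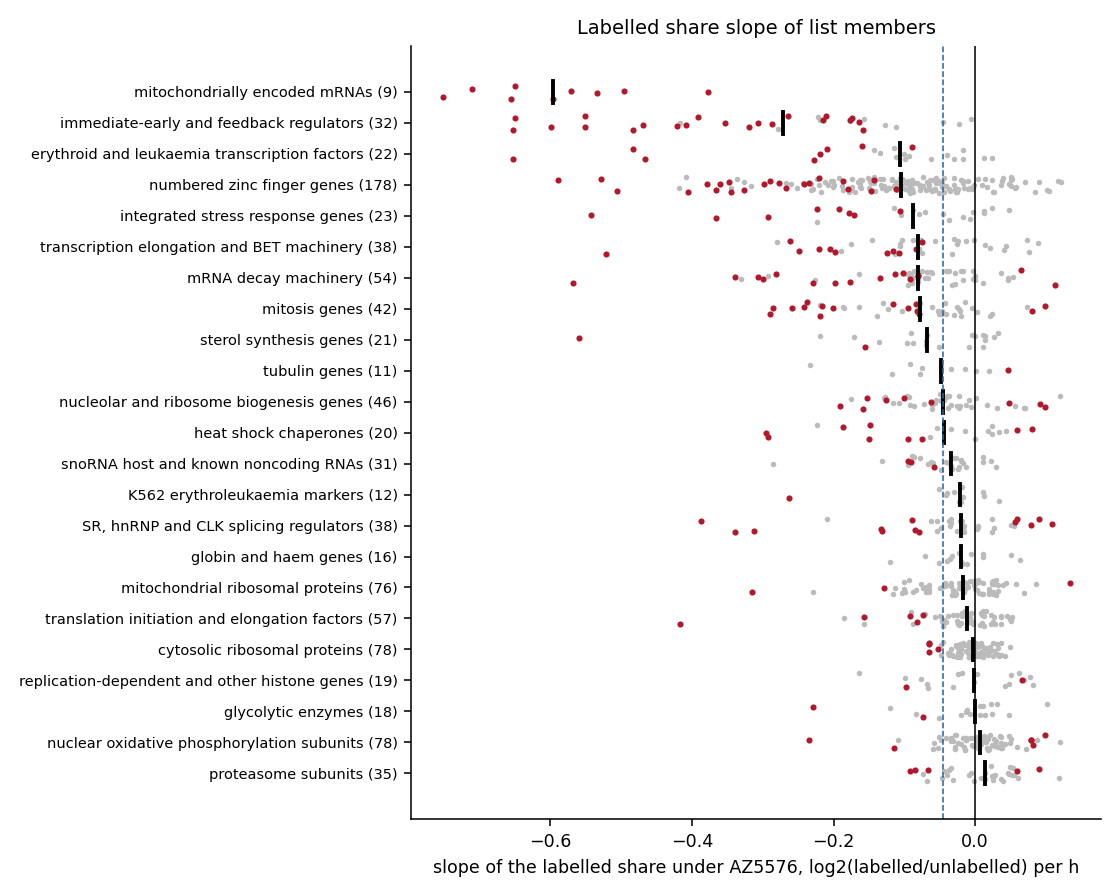
Share slope under AZ5576, log2(labelled/unlabelled reads) per h (x axis), for every member of 23 gene lists with at least 9 members (y axis, members in brackets); red points passed adjusted p 0.05, black bars are list medians, the dashed line is the median of all 8817 genes. Mitochondrially encoded messengers (median −0.60) and immediate-early regulators (−0.27) lie farthest to the left, and ribosomal proteins (−0.0031) lie around 0.

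Housekeeping lists differed in how much RNA they lost per fly read. Total reads fell in 9 of 78 cytosolic ribosomal protein genes, against 60.6% of all genes, whereas under TMM scaling they rose in 64. The share fell in 4, with 79.0% of the 0 h total, 78.6% of the labelled and 79.1% of the unlabelled reads left at 8 h in the median member. The median share of this list changed little in DMSO as well. It was 15.8% at 0 h, 15.7% at 8 h of AZ5576 and 13.6% at 8 h of DMSO. The share slope was called higher under AZ5576 than in DMSO in 32 of the 78, against 87.5% of all genes. RPLP0, a protein of the ribosomal stalk, had 52063, 53277, 47579 and 63538 total reads and a share of 15.1, 15.6, 17.3 and 15.0%. HBZ, the embryonic zeta globin, had a share of 4.28, 4.51, 4.73 and 4.58%, and the share changed past the test in 0 of 16 globin and haem genes by edgeR, 0 by DESeq2 and 0 at an unadjusted p under 0.05. In RPLP0, GAPDH and EEF1A1 the share at 8 h was 15.0, 8.25 and 26.2% under AZ5576, above the 13.2, 5.95 and 21.1% in DMSO. The slope difference of RPLP0 (0.04) was called, but not without the AZ5576 4 h, DMSO 4 h or DMSO 8 h library. That of GAPDH (0.07) was lost without the AZ5576 8 h library. Among nuclear oxidative phosphorylation subunits the share fell in 2 of 78 and rose in 4, and total reads fell in 17 but rose in 45 under TMM scaling. Total reads fell in 21 of 35 proteasome subunits, 36 of 57 translation factors and 9 of 18 glycolytic enzymes, near the percentage of all genes; under TMM scaling they fell in 0, 1 and 2 and rose in 8, 12 and 6. The share fell in 3, 5 and 2 of these lists' members, or 8.57, 8.77 and 11.1% against 11.9% of all genes, and rose in 2 proteasome subunits. None of these calls held in every fit with 1 library left out, nor did the 4 of cytosolic ribosomal proteins. Among the oxidative phosphorylation subunits the share call of NDUFB3 alone held. Mitochondrial ribosomal proteins lost total reads in 64 of 76 (19 under TMM scaling), and the median member kept 45.7% of its 0 h total at 8 h, against 49.9% for all genes. Their share was lower in 2, MRPL44 and MRPS12, and higher in 1, MRPL21 (slope 0.13). Of these calls that of MRPL21 alone held with any 1 library left out. Sterol synthesis genes lost total reads in 20 of 21 (6 under TMM scaling) with the share lower in 2. Of these NSDHL missed the threshold without the 0 or 8 h library.

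The share went up past the test in 109 genes; 100 were protein-coding, 8 were processed pseudogenes, and total reads fell in 90. NPM1, the nucleolar chaperone nucleophosmin (chr5:171387116-171411137), had 50490, 46460, 34597 and 34796 total reads and a share of 23.5, 25.4, 29.3 and 33.5%, higher at each time. Its labelled reads per fly read were at 61.4% of 0 h at 8 h and its unlabelled reads at 37.5%. In DMSO the NPM1 share was 24.4, 21.0 and 14.8% at 2, 4 and 8 h. The slope was 0.09 (SE 0.015, adjusted p = 0.00075, edgeR). NPM3, a relative of NPM1, had 14.5, 16.5, 23.5 and 28.0% (slope 0.16, adjusted p = 0.00058), against 17.4, 16.4 and 18.2% in DMSO.

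The naming rule for rising shares gave mostly pseudogenes, such as RPS24P6 with shares of 3.39, 3.92, 4.04 and 35.1% as its total reads went to 635 at 8 h after 12619, 13998 and 10468. In DMSO the RPS24P6 share was 4.07, 36.3 and 39.4%, and without the 8 h library its slope was 0.07 (adjusted p = 0.30). CKLF, a chemokine-like factor, had a share of 30.0, 38.4, 36.9 and 53.8% and MPC1, a subunit of the mitochondrial pyruvate carrier, 36.0, 49.3, 46.9 and 61.1%, higher at every later time than at 0 h. Both passed the test (slopes 0.17 and 0.17, adjusted p = 0.016 and 0.0053, edgeR) but not without the 0 h (adjusted p = 0.10 and 0.069) or 8 h library (0.51 and 0.25).

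Unlabelled levels were higher relative to 0 h in long genes than in short ones. In nuclear protein-coding genes (7806), grouped by genomic length under 5, 5 to 20, 20 to 50, 50 to 100 and over 100 kb, the median unlabelled level at 2 h of AZ5576 was 103, 105, 110, 120 and 128% of 0 h. At 4 h it was 72.6, 76.5, 84.2, 94.6 and 109% and at 8 h 48.4, 49.7, 54.6, 60.1 and 67.9%, so that the median gene over 100 kb still lay above 0 h at 4 h. Labelled reads went slightly the other way, at 47.1, 43.9, 42.7, 40.3 and 39.3% of 0 h at 8 h. The share fell past the test in 8.54, 8.91, 11.4, 14.4 and 19.8% of the genes of each group.

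The median share slope was −0.01, −0.02, −0.04, −0.07 and −0.10 per h in the 5 groups, and unlabelled reads lay above 0 h at 8 h in 4.27, 3.91, 6.89, 12.6 and 22.5% of the genes. Across these genes, which share the same 4 libraries and are not replicates, Spearman's rho of gene length was −0.26 with the share slope and 0.29 with the unlabelled ratio at 2 h. In DMSO rho with the share slope was −0.15, and the unlabelled medians at 8 h were 149, 218, 307, 390 and 417% of 0 h. The median labelled share at 0 h was 38.8, 48.4, 56.3, 58.5 and 58.3% in the 5 groups, so the longer groups started with a smaller unlabelled part than the shortest. T content moved with the share as well. Over the last 200 bases of 8713 members, rho of the percent T was 0.47 with the 0 h share and −0.21 with the share slope. The part of the 0 h share and of T content in the length pattern was not tested.

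**Figure D5:**
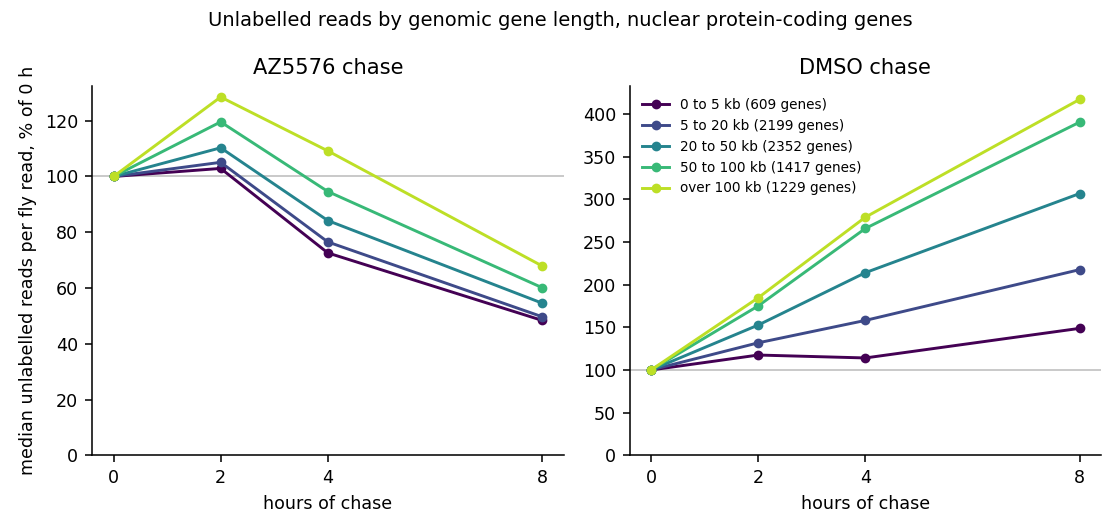
Median unlabelled reads per fly read as percent of 0 h (y axis, scales differ between panels) against hours of chase (x axis) for nuclear protein-coding genes grouped by genomic length, AZ5576 left and DMSO right. Under AZ5576 the longest genes reach 128% at 2 h and the shortest 103%, and all groups are below 100% at 8 h; in DMSO every group ends above 100%, from 149 to 417%.

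The AZ5576 chase kept the share higher than DMSO in most genes, tested in 1 model of all 10 libraries (edgeR, 6 residual degrees of freedom). The share slope was higher under AZ5576 in 7719 genes, 87.5%, and lower in 2, or 0.0227%, with a median difference of 0.34 per h; both arms use the same 0 h library. Of the 1052 genes whose share fell under AZ5576, it fell less steeply than in DMSO in 957 and more steeply in 1, the pseudogene RPL30P7, and in 94 the difference was not called. Those 94 include 15 of the 18 members on chromosome M as well as KLF10 (difference −0.06, adjusted p = 0.53) and NDUFB3. NDUFB3, a nuclear-encoded complex I subunit, had a share of 71.0, 74.1, 37.9 and 44.6% under AZ5576 and 62.5, 50.8 and 30.2% in DMSO (difference 0.07, adjusted p = 0.27, but 0.034 without the AZ5576 4 h library). BCYRN1, a neuronal RNA made by RNA polymerase III, had 12.4, 9.46, 8.62 and 7.01% under AZ5576 and 9.73, 7.48 and 5.07% in DMSO. The difference of 0.06 passed the test (adjusted p = 0.0031) but not without the AZ5576 8 h (0.30) or DMSO 8 h library (0.086). Its share slope under AZ5576 alone was −0.11 (adjusted p = 0.00056).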

How the data were processed

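The authors deposited raw counts per gene: all human reads, reads named nascent (taken here as labelled), and fly reads. The builds hg38 and dm6 and the tools Trim Galore 0.6.5, bcl2fastq 2.17.1.14 and bedtools are named per the submitters' processing notes; the aligner, the counter, the annotation and the rule for calling a read labelled are not given in the sources used here. Unlabelled reads are total minus labelled counts. Libraries were scaled by their fly read sum, and ratios used a pseudocount of 0.5. Slopes were fitted with edgeR 4.0.16 (R 4.3.3, functions glmQLFit and glmQLFTest), with hours as a number. AZ5576 slopes used 4 libraries, while DMSO slopes and the difference between arms used 10. With 1 library per time, p-values measure the scatter about a straight line, not between cultures. Fits were run on simulated counts with known straight-line slopes and a chosen noise. That setting is simpler than these data, so it does not give their rate of false calls. Alternatives used TMM, DESeq2 1.42.0, limma 3.58.1, other count minimums (1 and 100) and 1 library left out. Positions are those of GENCODE v29 and 8763 members had a symbol. Members and lists were chosen with earlier results of these data known. The naming rule, for genes of at least 200 mean total reads, took the 8 steepest falling and 8 steepest rising shares that lay on 1 side of 0 h at all 3 later times, the 6 largest unlabelled gains, the 6 steepest total falls, the 6 most abundant genes and a panel; nuclear protein-coding genes were added where mitochondrial genes or pseudogenes filled a place, and other list members after their values were seen. Some genes that the rule names are not reported here.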

Additional observations from a re-analysis of the deposited data

Results flagged for a closer look

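The share slope was higher under AZ5576 than in DMSO in 7719 genes, a difference between arms tested in 1 model of all 10 libraries.

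In a pair of processed pseudogenes the share slope was lower under AZ5576 than in DMSO. HMGB1P10 had a share of 45.3, 37.5, 38.5 and 30.7% at 0, 2, 4 and 8 h of AZ5576 and 36.8, 47.6 and 54.4% at 2, 4 and 8 h of DMSO, a difference of −0.159 per h (adjusted p = 0.025, edgeR). RPL30P7 had 92.5, 94.9, 59.0 and 36.4% under AZ5576 and 89.6, 66.7 and 81.0% in DMSO, a difference of −0.309 (adjusted p = 0.0092). Neither call held without the AZ5576 8 h library (adjusted p = 0.25 and 0.091) or without the DMSO 8 h library (0.41 and 0.99). RPL30P7 had only 40 total reads at 0 h, and reads of both may be shared with the parent genes.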

How the results depend on the processing

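No paired analysis was possible because each time and arm has 1 library and the groups share fewer than 2 replicate numbers. The counts of genes that fell or rose depend on the scale and on single libraries. Under TMM scaling total reads fell in 1222 genes and rose in 843, labelled reads in 1575 and 1254 and unlabelled reads in 524 and 369, and the median log2 ratios at 8 h were 0.008, −0.19 and 0.19. With DESeq2, 19, 2 and 30 genes rose in these 3 measures and the share fell in 639 and rose in 66. With all 10 libraries in the fit the rises numbered 13, 3 and 13, unlabelled reads fell in 4475 genes and the share rose in 25. With a minimum mean labelled count of 1, total reads rose in 129 genes and unlabelled reads in 145, and the share slope was lower under AZ5576 than in DMSO in 11. With a minimum of 100, total reads fell in 2941 and rose in 8, labelled reads in 3151 and 1, unlabelled reads in 1773 and 17, the share fell in 682, and the difference from DMSO was higher in 4188 and lower in 0 genes (edgeR). With limma it was lower in 7.

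With 1 library left out, falls numbered 203 to 7304 and rises 8 to 49 for total reads, 345 to 7059 and 3 to 11 for labelled reads, 46 to 5644 and 13 to 78 for unlabelled reads, and 307 to 1312 and 16 to 157 for the share. The share slope was higher under AZ5576 than in DMSO in 5859 to 7768 genes and lower in 2 to 7. Leaving out mitochondrial genes and their copies gave a labelled share of 29.2% at 8 h, which is 85.7% of its 0 h value.

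Of 137 genes examined singly, 114 had a total slope below 0, and TMM scaling turned 41 of these positive. They include 10 of the 83 falls that had passed the test: ACTB (0.0352), NCL (0.0223), ODC1 (0.0263), MPC1 (0.0237), RPL27A, RPL41, HMMR, MTHFD2, ASNS and SNHG15, none of which passed as a rise. Of the others, 15 passed as rises, among them RPLP0 (0.08) and GAPDH (0.07), and TXNIP, JUN, JMJD6, SPATA2 and POLR2A turned without passing. With 1 library left out the share slopes of RPL12P19 and MYC ran from −0.4862 to 0.1895 and from −0.9732 to 0.0722, and the total slope of ENTREP3 from −0.2824 to 0.0058; each was positive without the AZ5576 8 h library. For genes of the naming rule and its additions that had passed the main test, each gene under each other setting was counted as 1 comparison. Of these comparisons, 317 of the share slope and 314 of the total slope kept direction and call. In 55 and 76 the direction was kept but the threshold missed, and in 2 and 5 the sign turned. The cause was not tested. For MYC at 8 h, 0 labelled of 14 total reads allow a share of up to 21.4%.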
